A study of Drosophila melanogaster with 15 samples.

Results

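The exonic acetylation loci described here are places inside genes, more than 1000 bp from the annotated start of the named transcript, at which a peak of H4K16Ac or H3K9Ac lay in an exon. A peak was a member if it named a gene, lay more than 1000 bp from the transcription start site (TSS), was annotated as neither purely intronic nor upstream, and lay on chromosome arms 2L, 2R, 3L or 3R. Windows of 400 bp around the peak centers were merged within each mark where they overlapped. This gave 171 H4K16Ac loci from 326 of 24152 peaks, naming 164 genes, and 171 H3K9Ac loci from 346 of 23378 peaks, naming 158 genes. Over all chromosomes and annotations the same merging gave 8075 H4K16Ac and 6350 H3K9Ac windows. The choice of members also covered peaks downstream of genes, but 0 peaks of either table carried that annotation, so all 342 loci are exonic. Peaks of the same annotation on X and the fourth chromosome were left out by the rule. They numbered 316 for H4K16Ac and 39 for H3K9Ac.

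The peaks came from nuclei of the mushroom bodies (MBs), the paired brain structures in which flies store olfactory memory. All flies expressed a FLAG-tagged KASH domain of Klarsicht, which sits in the nuclear membrane, from the MBp-LexA driver in the CS10 strain, and tagged nuclei were pulled from homogenized heads of many pooled flies. Since the driver is active in all 3 classes of Kenyon cell, though least in α′/β′ cells, the nuclei are a mixture of them. Spaced training pairs an odor with shocks over several sessions separated by rests. For H4K16Ac there were 3 libraries of flies taken 1 day later and 3 of naive flies. H3K9Ac was likewise measured in 3 libraries from spaced-trained flies and 3 from naive flies. Spaced-trained flies also gave 1 CREB and 1 CRTC library, and naive flies 1 input library, 15 samples in all. Nothing in the labels says that replicate libraries came from separate fly cohorts, though the study calls its replicates biological. The tables give peak positions and no reads per library, so no value per library or test over libraries could be given. The study reports retained reads and a check of sequencing depth, which were not used here. Each table consists of 3 successive runs of rows, each ordered over the genome, with no sample name on them. The number of runs that hold a peak is given below as a measure of how often a locus was called. Only peaks of the locus's own annotation class were counted, so a place can have been called in more runs than given.

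Acetylated lysines loosen the contact of histones with DNA and are read by bromodomain proteins. H3K9Ac, placed largely by GCN5, is best known at the promoters of active genes. H4K16Ac is placed by Tip60 and by Mof, and Mof acts in male flies as part of the dosage compensation complex, which spreads H4K16Ac over the bodies of genes on X. A peak in an exon far from the named start can mark the body of a transcribed gene, a regulatory element within it, or the start of a transcript that the annotation names differently. Peak positions cannot tell these apart.

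The marks differed in the kind of exon in which their peaks lay. Of the H4K16Ac loci, 89 of 171 (52.0%, 95% Wilson interval 44.6 to 59.4%) had their strongest peak in coding exon alone, against 62 of 171 H3K9Ac loci (36.3%, 29.4 to 43.7%). The difference was 15.8 percentage points with a 95% Newcombe interval of 5.26 to 25.8. The order was turned round for exons of the 5′ UTR, which held 40 H4K16Ac loci (23.4%) and 61 H3K9Ac loci (35.7%), a difference of -12.3 points (-21.6 to -2.61). Loci whose strongest peak touched a 5′ UTR along with intron or coding exon were counted in this class. Peaks annotated 5′ UTR alone were 17.8% of H4K16Ac and 24.0% of H3K9Ac member peaks. Peaks across a boundary of coding exon and intron made up 22 H4K16Ac and 29 H3K9Ac loci, and peaks in the 3′ UTR 20 H4K16Ac and 19 H3K9Ac loci. For both of these classes the interval of the difference included 0. These intervals cover counting error over loci only, and loci are not replicates of a condition.

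**Figure D1:**
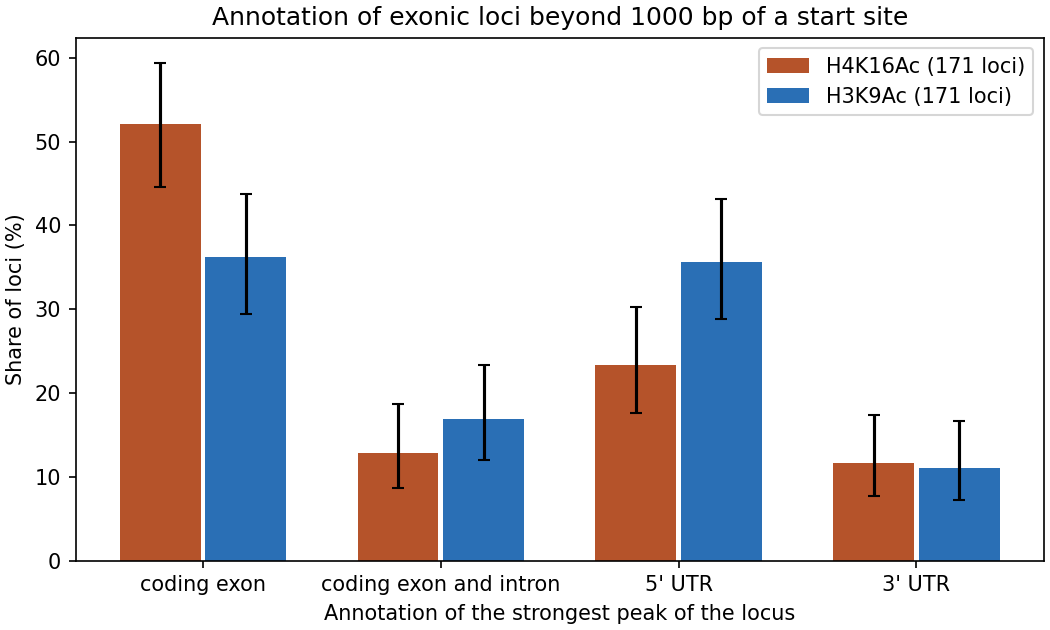
Share of the 171 H4K16Ac and 171 H3K9Ac exonic loci (y axis, percent) by the annotation of the strongest peak of the locus (x axis), with bars for the share and error bars for 95% Wilson intervals. Coding exon held 52.0% of H4K16Ac and 36.3% of H3K9Ac loci, and the 5′ UTR 23.4% of H4K16Ac and 35.7% of H3K9Ac loci.

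The rows of the H4K16Ac table are 400 to 401 bp wide, all but 1 at the lower value, whereas H3K9Ac rows have a median width of 48 bp, and a wider row can touch more kinds of feature. Over all rows, members or not, mixed annotations were given to 13.4% for H4K16Ac and 15.8% for H3K9Ac. Among member peaks, coding exon with intron made up 12.9% for H4K16Ac and 14.7% for H3K9Ac. Intron with 5′ UTR made up 2.45% of H4K16Ac and 6.07% of H3K9Ac member peaks. The part of row width in the exon difference was not tested. With members restricted to peaks beyond 2000 bp, the coding exon difference was 38.4 points (21.9 to 51.9).

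Most loci lay close to the limit. The distance to the named start had a median of 1741 bp (1003 to 41586 bp) for H4K16Ac and 1588 bp (1002 to 35534 bp) for H3K9Ac, and 104 H4K16Ac loci (60.8%) and 112 H3K9Ac loci (65.5%) lay within 2000 bp. The limit cuts through a continuous range. In the first 100 bp beyond the limit there were 42 H4K16Ac and 58 H3K9Ac peaks with an exonic annotation, and in the last 100 bp before it 36 H4K16Ac and 67 H3K9Ac peaks. Just inside lay mRpS18B and Lerp at 1003 bp for H4K16Ac, and dl and CG11226 at 1002 bp for H3K9Ac. Just outside lay Uba1 and Adk2 at 999 bp for H4K16Ac, and CG12581 at 1000 bp for H3K9Ac.

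Beyond 10000 bp there were 14 H4K16Ac and 8 H3K9Ac loci, in long genes. Those of H4K16Ac included exons of CG9339 at 41586 bp, Msp-300 at 37987 bp, klar at 34588 bp and scrib at 31286 and 18054 bp. Msp-300 and klar encode KASH proteins that link the nucleus to the cytoskeleton, and scrib encodes a scaffold of cell polarity that is also known in olfactory memory. The exon of klar also held an H3K9Ac locus, at 34571 bp, with peaks in all 3 runs for each mark. The nuclear tag of these flies was itself built from the C-terminal part of the klar protein. Reads of the transgene can map to klar, so acetylation of the transgene and of the gene cannot be told apart in the exons that the tag carries. Whether the exon with the peaks is among them was not tested. The other distant H3K9Ac loci included mub at 35534 bp, an RNA-binding protein named for the mushroom body, in 1 run, and the 5′ UTR of Atpalpha at 12050 bp. Atpalpha, the catalytic subunit of the sodium pump, had an H4K16Ac locus at 12034 bp as well.

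**Figure D2:**
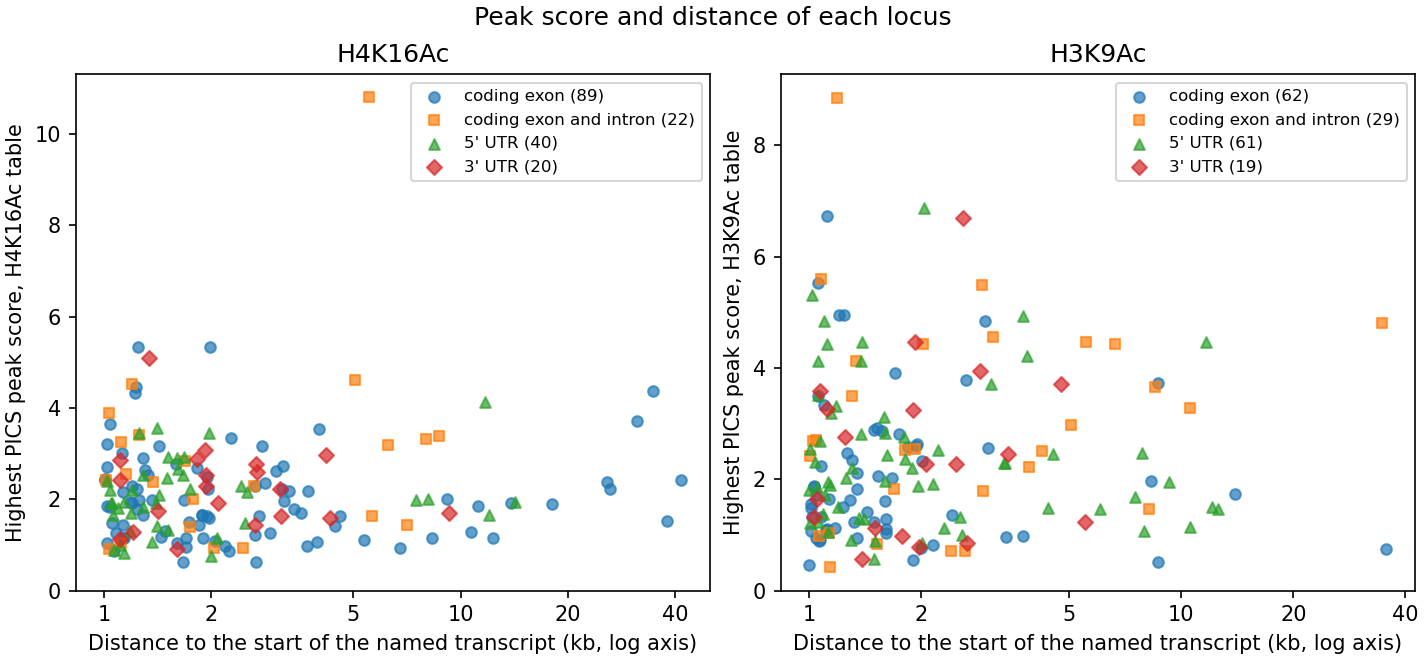
Each point is an exonic locus of H4K16Ac (left) or H3K9Ac (right), by its distance to the start of the named transcript (x axis, kb, log axis) and its highest PICS peak score (y axis, each mark on its own scale), with symbols for the annotation. Most points lie below 2 kb, and the highest H4K16Ac score, 10.8, is the exon of Pdk.

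The loci with the highest scores lay in genes of varied function. The PICS score, the peak caller's measure of enrichment over input, has no fixed range, so scores are compared only within a mark. The highest H4K16Ac score, 10.8, was at the exon and intron boundary of Pdk, the kinase that switches off pyruvate dehydrogenase, at chr2R:5319281-5319698 (dm3), 5533 bp from the start. It stood well above the next score of 5.32, which was shared by the coding exons of l(2)not, now named Alg3, a mannosyltransferase of N-glycan synthesis, and CG31063. The other H4K16Ac loci among the first 8 were the 3′ UTR of CG14907 (5.10), 14-3-3zeta (4.61), PNUTS (4.54), Ext2 (4.46) and klar (4.37). The 14-3-3zeta locus was called in 1 run and the other 7 in at least 2.

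For H3K9Ac the highest score, 8.85, was at PNUTS, the nuclear targeting subunit of protein phosphatase 1, at chr2L:871455-872129. It was followed by the 5′ UTR of nrv3 (6.87), a β subunit of the sodium pump, the coding exon of Ext2, also called sotv (6.72), which polymerizes heparan sulfate, and the 3′ UTR of corto (6.69), a chromatin protein that interacts with Polycomb and trithorax group proteins. CG7971 (5.60), CG33229 (5.53), CG3961 (5.49) and the homeobox gene hth (5.32) completed the first 8. The CG33229 locus was called in 1 run and CG3961 in 2 runs. The other 6 were called in all 3 runs.

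The 3′ UTR loci formed a small group with scores over a wide range, from 0.92 to 5.10 for H4K16Ac and from 0.576 to 6.69 for H3K9Ac. CG9243, by and CG15908 had 3′ UTR peaks of both marks in all 3 runs. The gene by encodes the focal adhesion protein Tensin. The H4K16Ac 3′ UTR locus of Su(z)2, a Polycomb group gene, lay 9250 bp from the start with a score of 1.69, and no H3K9Ac window was nearer than 8624 bp.

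Few genes held more than 1 locus, and none more than 2. These were 7 genes for H4K16Ac, among them scrib, Aldh-III, Nak, Crc and l(3)mbt, and 13 for H3K9Ac, among them 18w, vvl, corto, nrv3, scyl and gem. The 2 loci of 18w, a Toll family receptor, lay next to each other in the coding exon. They include the widest H3K9Ac locus, 1365 bp at chr2R:16000970-16002335. The widest H4K16Ac locus, 1296 bp, lay in the 5′ UTR of CG6424 at chr2R:13604143-13605439, in all 3 runs.

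The exonic loci held peaks of their own annotation class in fewer runs than loci near a start site did. Peaks in all 3 runs made up 38 of 171 H4K16Ac exonic loci (22.2%), against 2164 of 4496 H4K16Ac loci within 1000 bp of a start (48.1%), a difference of -25.9 points (-31.7 to -19.0). For H3K9Ac the values were 45 of 171 exonic loci (26.3%) and 2506 of 4149 loci near a start (60.4%), a difference of -34.1 points (-40.3 to -26.9). About as many exonic loci of each mark rested on 1 run alone, 89 H4K16Ac loci (52.0%) and 85 H3K9Ac loci (49.7%). Their scores were lower as well, with a median of 1.98 at exonic and 2.26 at near-start H4K16Ac loci, and of 2.02 at exonic and 2.61 at near-start H3K9Ac loci. A locus took its highest peak score, and loci of 1 peak alone were more common among exonic loci. They made up 82 of 171 exonic loci for each mark. Near a start they made up 991 of 4496 H4K16Ac and 684 of 4149 H3K9Ac loci. Against intronic loci beyond 1000 bp the all-run share differed by -4.87 points for H4K16Ac (-11.0 to 2.34, an interval that includes 0) and by -8.18 points for H3K9Ac (-14.9 to -0.579). Windows of the same mark with another annotation overlapped 80 H4K16Ac (46.8%) and 105 H3K9Ac (61.4%) exonic loci, and their peaks are not in these run counts. The part of this splitting by annotation in the lower run counts was not tested. Nor was its part, or that of the number of peaks per locus, in the lower scores.

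Whether the marks shared their exons was asked by overlap of windows. Of the H4K16Ac exonic loci, 96 of 171 (56.1%, 48.6 to 63.4%) overlapped an H3K9Ac window of any annotation. Of the H3K9Ac exonic loci, 101 of 171 (59.1%, 51.6 to 66.2%) overlapped an H4K16Ac window. Sharing was less common than near start sites, where 78.0% of H4K16Ac and 83.4% of H3K9Ac loci overlapped the other mark. The difference, exonic minus near start, was -21.8 points (-29.4 to -14.5) for H4K16Ac and -24.3 points (-31.9 to -17.1) for H3K9Ac. Intronic loci overlapped the other mark in 51.9% of H4K16Ac and 61.7% of H3K9Ac cases, and for both marks the interval of the difference from exonic loci included 0. Upstream loci did so in 49.1% of H4K16Ac and 70.3% of H3K9Ac cases. The difference, exonic minus upstream, was 7.07 points (-1.78 to 15.7) for H4K16Ac, and -11.2 points (-20.1 to -2.38, an interval without 0) for H3K9Ac. The score and the number of runs moved with these classes, and their part in the difference was not tested.

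The number of runs went with sharing for H4K16Ac. Of its exonic loci, 40 of 89 in 1 run (44.9%), 25 of 44 in 2 runs (56.8%) and 31 of 38 in 3 runs (81.6%) overlapped an H3K9Ac window. For H3K9Ac the same shares were 58.8% in 1 run, 58.5% in 2 runs and 60.0% in 3 runs. Sharing thus hardly differed with the number of runs that held an exonic H3K9Ac peak.

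**Figure D3:**
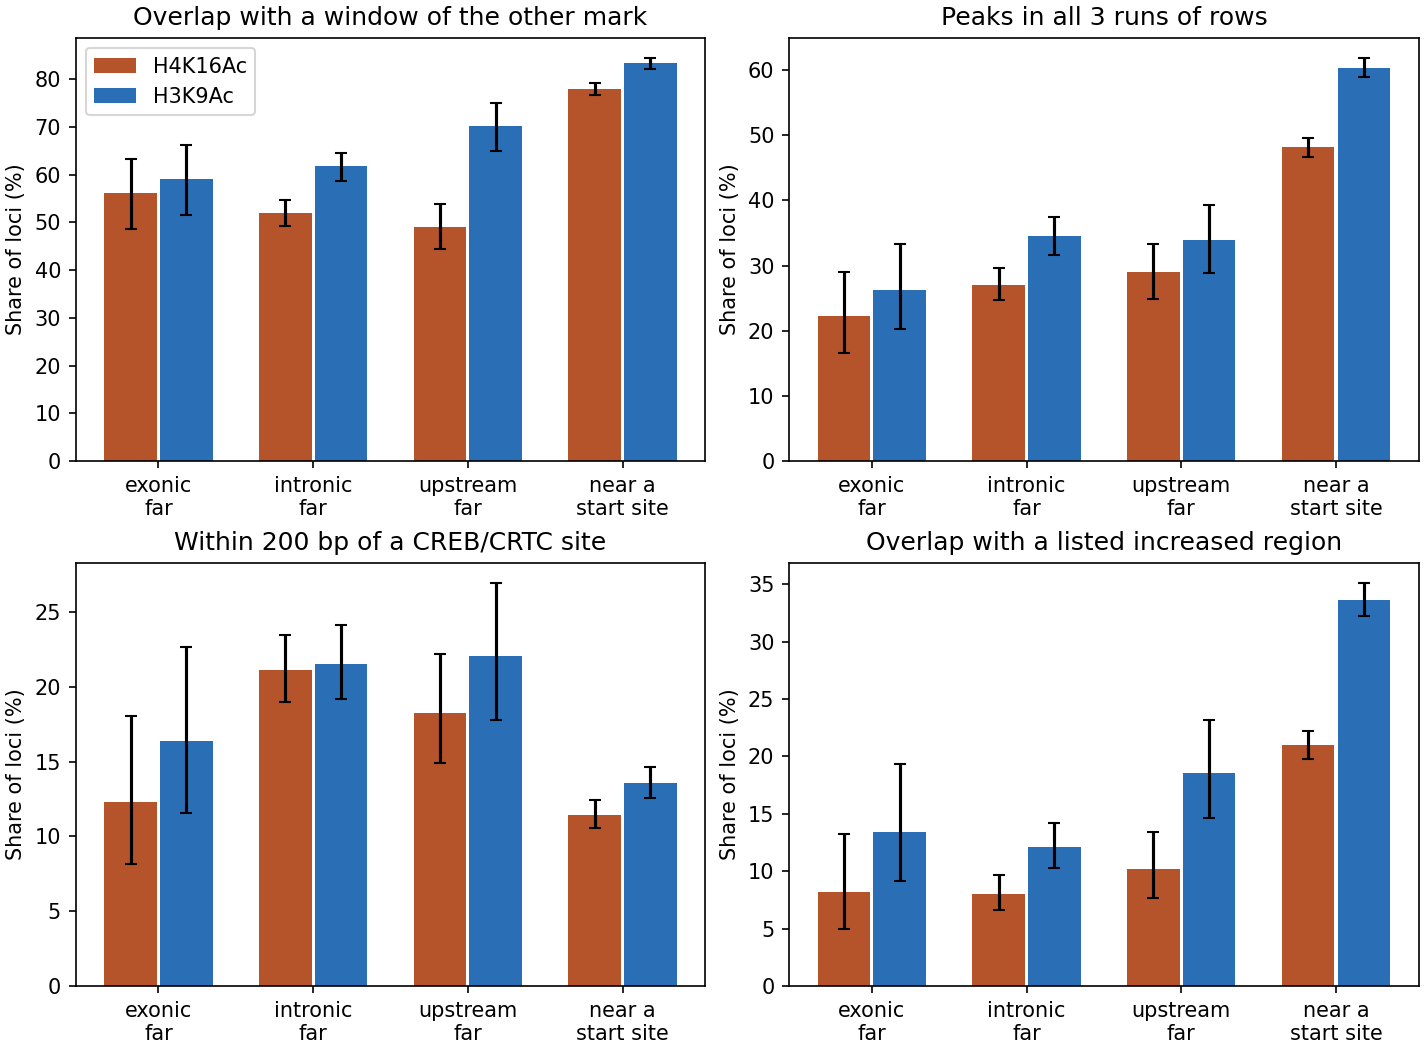
Share of loci (y axes, percent, with 95% Wilson intervals) that overlap a window of the other mark, have peaks in all 3 runs, lie within 200 bp of a CREB/CRTC site, or overlap a listed increased region, for exonic, intronic and upstream loci beyond 1000 bp of a start and loci near a start (x axes). Exonic loci had peaks in all 3 runs in 22.2% (H4K16Ac) and 26.3% (H3K9Ac) of cases, below loci near a start with 48.1% (H4K16Ac) and 60.4% (H3K9Ac). Runs were counted over peaks of the locus's own annotation class only. The increased lists hold only regions near a start, which limits the last panel.

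Overlap with an exonic locus of the other mark was found for 76 of 171 loci of each mark (44.4%), in 78 pairs. In 76 of the pairs both loci named the same gene, and in 56 the annotation was the same, coding exon in 21 and 5′ UTR in 22. The centers of the paired loci were 64.5 bp apart at the median and at most 465 bp apart, with 47 pairs within 100 bp. Exonic loci of both marks named 75 genes in common, 45.7% of the genes of H4K16Ac and 47.5% of those of H3K9Ac.

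The pairs with the best joint rank of score were PNUTS, Ext2, CG31063, Pdk, klar, Hsromega, CG7971 and Eip93F. Hsromega is the noncoding heat shock transcript that organizes nuclear speckles, and its locus scored 3.57 for H4K16Ac and 4.84 for H3K9Ac in all 3 runs each, with a CREB/CRTC site 57 bp from the H4K16Ac locus and 75 bp from the H3K9Ac locus. Eip93F, an ecdysone-induced transcription factor, had its pair 11670 bp from the start, with scores of 4.13 for H4K16Ac and 4.46 for H3K9Ac. Of the 78 pairs, 15 had a CREB/CRTC site within 200 bp of at least 1 of the loci, and 13 within 200 bp of both. At Trp1 and larp the site was within 200 bp of the H3K9Ac locus only.

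**Figure D4:**
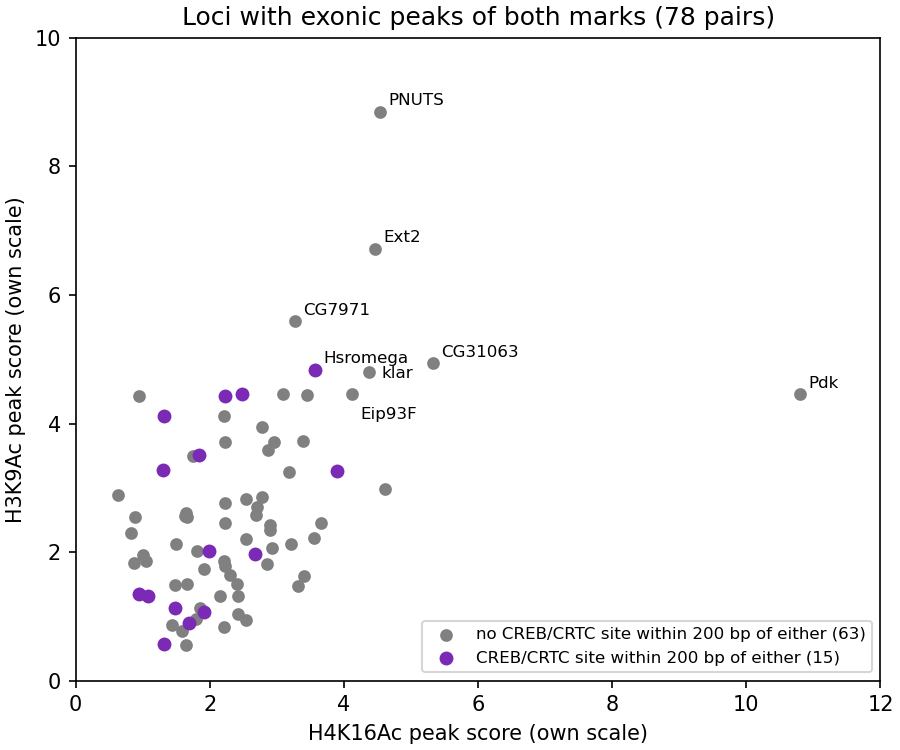
Each point is 1 of 78 pairs of overlapping exonic loci, by the H4K16Ac peak score (x axis) and the H3K9Ac peak score (y axis), each on its own scale, with the 15 pairs in which at least 1 locus is near a CREB/CRTC site in purple and the 8 pairs of best joint rank named. Pdk, with 10.8 for H4K16Ac and 4.46 for H3K9Ac, lies apart from the other pairs.

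Other loci had no peak of the other mark nearby, which does not show that the mark was absent. No window of the other mark lay within 1000 bp of 45 H4K16Ac loci (26.3%) and 28 H3K9Ac loci (16.4%). For H4K16Ac the highest scores in this group were at l(2)not (5.32), scrib at 31286 bp (3.71), the 5′ UTR of Pif1A (3.45), CG33110 (3.35) and Gen (3.02), which encodes a nuclease that resolves DNA junctions. The nearest H3K9Ac window to the scrib locus was 25635 bp away. For H3K9Ac they were at the 5′ UTR of nrv3 (6.87), both loci of 18w (4.84 and 3.91), vvl (2.92), a POU domain transcription factor of neural development, and CG5112 (2.81). The nearest H4K16Ac window was 35681 bp from the nrv3 locus and 16277 bp from the vvl locus. The nrv3, 18w and vvl loci were called in all 3 runs and the CG5112 locus in 1. Among the H4K16Ac loci named here, l(2)not, scrib and CG33110 were called in 2 runs, and Pif1A and Gen in 1.

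CREB binds DNA at cyclic AMP response elements, and CRTC is a coactivator that joins it in the nucleus. CRTC sites no more than 200 bp from one of CREB were counted as CREB/CRTC sites, which gave 2390 sites from 3002 CRTC and 4803 CREB sites. The lists used here hold fewer CRTC sites than the study describes. The study kept sites called in more than 1 replicate, whereas the samples here hold 1 CREB and 1 CRTC library. The shares below count the listed sites only. They can be too low where sites are missing, and too high where a listed site would not recur in replicates. Such a site lay within 200 bp of 21 of 171 H4K16Ac loci (12.3%, 8.17 to 18.0%) and 28 of 171 H3K9Ac loci (16.4%, 11.6 to 22.6%). The difference between marks was -4.09 points and its interval, -11.6 to 3.40, included 0. When the site had to overlap the locus itself, 10 H4K16Ac and 9 H3K9Ac loci were left and the difference was 0.585 points.

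Within the exonic loci the sites went with the 5′ UTR. They lay near 11 of 40 H4K16Ac loci (27.5%) and 16 of 61 H3K9Ac loci (26.2%) in 5′ UTR exons, but near 5 of 89 H4K16Ac loci (5.62%) and 5 of 62 H3K9Ac loci (8.06%) in coding exons. Loci across a boundary of coding exon and intron had 4 of 22 for H4K16Ac and 6 of 29 for H3K9Ac, and 3′ UTR loci had 1 of 20 for H4K16Ac and 1 of 19 for H3K9Ac. The counts of the 2 marks are not independent, since in 13 of the 78 pairs both loci had a site within 200 bp. Intronic loci had sites in 21.1% of H4K16Ac and 21.6% of H3K9Ac cases, and the difference, exonic minus intronic, was -8.86 points (-13.6 to -2.70) for H4K16Ac and -5.18 points (-10.6 to 1.53) for H3K9Ac. Loci near a start had them in 11.5% of H4K16Ac and 13.6% of H3K9Ac cases. The site list gave its own distance of at most 500 bp to a start for 6 of the 21 H4K16Ac and 10 of the 28 H3K9Ac loci, and a distance above 1000 bp for 8 H4K16Ac and 7 H3K9Ac loci. Part of the loci therefore lay near a start by a different annotation.

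By the enrichment factor of the CRTC site, the ratio of ChIP to background reads, the first H4K16Ac loci were the 5′ UTR of osa (10.2), a subunit of the Brahma chromatin remodeller, for (6.29), the cyclic GMP-dependent protein kinase known from foraging behavior, CG31635 (6.29), MFS14 (6.14), Vha16 (6.08), a subunit of the vacuolar proton pump, and CG9162 (5.98). For H3K9Ac they were CG42507 (14.7), wun (10.7), a lipid phosphate phosphatase, larp (6.37), an RNA-binding protein of translation, for (6.29) and both loci of CG31635 (6.29). The site at CG42507 was named for Trl, the GAGA factor, in the CRTC list, and the site at for was named for CG34340. The for, CG31635, MFS14, Vha16 and CG9162 sites lay near exonic loci of both marks. Many of these loci rested on few runs. For H4K16Ac, osa, MFS14 and Vha16 were called in 1 run, and for, CG31635 and CG9162 in 2. For H3K9Ac, CG42507, for and the CG31635 locus at 1293 bp were called in 1 run. The CG31635 locus at 2157 bp was called in 2 runs, and wun and larp in all 3.

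Whether the exonic loci gained acetylation after spaced training was read here from the deposited lists of increased regions. Those lists hold 1428 H4K16Ac and 1889 H3K9Ac regions, and none of them is placed more than 500 bp from a start site. The study reports fewer increased regions for each mark, called with DESeq2, and places part of them farther from starts. The lists are therefore not the regions that the study reports, which were not analysed here. The shares below describe the lists only. Given the 500 bp limit of the lists, an exonic locus could be listed through a start site other than the named one. It could also be listed as the list's own annotation places it, or where its edge reached a region near the named start. Which of these applied was not tested. Of the H4K16Ac exonic loci 14 of 171 (8.19%) overlapped a listed region, against 17% of all merged H4K16Ac windows on the same arms. Of the H3K9Ac exonic loci 23 of 171 (13.5%) did, against 28.8% of all merged H3K9Ac windows. With a minimum overlap of 200 bp, 6 H4K16Ac and 17 H3K9Ac exonic loci were listed. With that limit of the lists, the lower shares are not a measurement of change in exons. Under the same limit, the shares were 8.04% for H4K16Ac and 12.1% for H3K9Ac among intronic loci, 10.2% for H4K16Ac and 18.5% for H3K9Ac among upstream loci, and 21% for H4K16Ac and 33.7% for H3K9Ac among loci near a start.

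The increased list put the start site within the region itself, at 0 bp, for 8 of the 14 H4K16Ac and 8 of the 23 H3K9Ac loci. It named the same gene for 12 H4K16Ac and 17 H3K9Ac loci when renamed genes are counted, and an overlapping or adjacent gene for the rest. The H3K9Ac count includes the Chrac-14 locus, where the list named mus201, a gene that also has a peak in the merged locus. The H4K16Ac loci included gro, the corepressor Groucho, Cdk12 (named CG7597 in the peak table), a kinase of the RNA polymerase II tail, Kdm2 (CG11033), a histone demethylase, the polyubiquitin gene Ubi-p63E, scrib and NAT1. The H3K9Ac loci included CG7971, Gint3, Trp1, a subunit of the Sec62/Sec63 translocon, Vha16, larp, 14-3-3zeta, RpS23, RpL5, Cpr and ps, a neuronal splicing factor. At RpS23 and RpL5, ribosomal protein genes that host small RNAs, the list named the small RNAs, mir-308 and snoRNA:Psi28S-2996, in place of the host.

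In 5 of the 78 pairs of overlapping exonic loci, the loci of both marks were listed as increased. The share of all windows with both marks that are listed for both was not computed, so nothing is read from this count. The 5 pairs were at M(2)21AB, now Sam-S, the synthase of S-adenosylmethionine, CG17928, CG5315, now AdipoR, the adiponectin receptor, Aldh-III, an aldehyde dehydrogenase, and CG1140, now SCOT, an enzyme of ketone body use. Their scores were modest, from 1.06 to 2.23 for H4K16Ac and from 0.776 to 2.77 for H3K9Ac. Of the 21 H4K16Ac loci near a CREB/CRTC site, 2 were also listed as increased, CG3164 and Kdm2. Of the 28 such H3K9Ac loci, 5 were, CG31635, Trp1, Vha16, CG32195 and larp. Over all merged windows on the same arms, 17% were listed as increased for H4K16Ac and 28.8% for H3K9Ac. Without the loci that overlap a window of the same mark near a start site, 9 of 142 H4K16Ac and 15 of 123 H3K9Ac loci were in the increased lists.

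A few genes of memory and of MB identity were among the exonic loci. Of the listed memory and MB genes with any peak, 2 of 19 (10.5%) held an exonic H4K16Ac locus, 14-3-3zeta and for, and 5 of 23 (21.7%) held an exonic H3K9Ac locus, these 2 with Pka-C1, Pka-R2 and dac. Over all named genes on these arms the shares were 3.43% for H4K16Ac and 3.63% for H3K9Ac, and with counts this small nothing is read from the comparison. Pka-C1 and Pka-R2 are subunits of the cyclic AMP-dependent protein kinase and dac is a transcription factor of Kenyon cells. The Pka-C1 locus had a score of 3.34 in all 3 runs at 1094 bp, dac 2.48 in 2 runs at 1262 bp, and Pka-R2 0.858 in 2 runs at 2005 bp. The 14-3-3zeta locus, 5054 bp from the start for H4K16Ac and 5045 bp for H3K9Ac, carried both marks, and the H3K9Ac locus was listed as increased.

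Among trithorax, Polycomb and remodelling genes, 4 of 30 held an exonic H4K16Ac locus (Su(z)2, ash2, osa and trx) and 2 of 26 an exonic H3K9Ac locus (ash2 and lola). The trx locus, in a 5′ UTR exon 7473 bp from the start, had a score of 1.99 in 1 run. Synaptic genes gave 1 of 16 for H4K16Ac, cpx, the complexin that clamps vesicle fusion, and 2 of 19 for H3K9Ac, cpx and Nrx-1, the neurexin. Adhesion and guidance genes gave 0 of 11 for H4K16Ac and 1 of 15 for H3K9Ac, trn. The shares over all named genes on these arms, 3.43% for H4K16Ac and 3.63% for H3K9Ac, apply here too. With counts this small nothing is read from these lists either. Genes of glia, photoreceptors, and fat body and muscle, which mark other cells of the head, gave 0 exonic loci for either mark. Few of them had any peak. Of the 11 glial genes 3 had an H4K16Ac and 4 an H3K9Ac peak. Among the 17 photoreceptor genes 3 had an H4K16Ac and 1 an H3K9Ac peak, and among the 13 fat body and muscle genes 1 for each mark. By comparison, 19 of the 41 memory and MB genes had an H4K16Ac peak and 23 an H3K9Ac peak. With so few marker genes holding a peak, 0 exonic loci among them say nothing about the purity of the nuclei.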

How the data were processed

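The labels name dm3 as the genome. The study's methods state that the authors mapped the reads, called peaks against input with PICS and ERD, and kept peaks found by both. The authors deposited 6 lists and no counts per library. The peak tables give a PICS score and a false discovery rate, a deposited value of the p-value type that served here only as an alternative filter. The CRTC list gives the deposited enrichment factor, a ratio of ChIP to background reads. The increased lists also hold a mean, an SD and a t-test p-value of the authors' own comparison, 6 columns in all, which were not used.

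Peaks were set to windows of 400 bp around the center and merged within a mark where they overlapped by at least 1 bp. A locus took annotation, distance and score from its highest-scoring peak. A locus of mixed annotation was counted under the UTR where it held one. Coordinates are those of dm3. Shares carry 95% Wilson intervals and differences 95% Newcombe intervals, computed in Python 3.11.15 with pandas 2.3.3 and numpy 2.4.6. Merging and distances were tested on 200 simulated sets. Current gene names came from RefSeq by transcript accession or symbol for 341 of 342 loci. The reference annotation is of a later genome release, so its coordinates were not used, and no sequences were read.

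Members and lists were chosen with earlier results of these data known. Named loci were, per mark, the 8 highest scores, the 5 highest without the other mark within 1000 bp, the 6 highest CRTC enrichment factors, genes with several loci, the widest locus, the 8 best pairs and list members. Loci in the increased lists were to be named by listed fold. As that column was not used, they were chosen after their values were seen.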

Additional observations from a re-analysis of the deposited data

How the results depend on the processing

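Over 8 results and 77 alternatives of them, 51 kept their value within the interval, or within 1.5 times for counts, 25 moved and 1 changed sign, and the cause was not tested. The 51 include 8 values under the stricter false discovery rate, all identical to those reported. That filter removed 1 of 326 H4K16Ac and 6 of 346 H3K9Ac member peaks and no locus, so it tested little. Beyond 2000 bp there were 72 H4K16Ac and 61 H3K9Ac loci, the coding exon difference was 38.4 points, 44.4% of H4K16Ac loci overlapped an H3K9Ac window, and 5 H4K16Ac and 5 H3K9Ac loci were listed as increased. With peaks in at least 2 runs there were 82 H4K16Ac and 86 H3K9Ac loci, 68.3% of H4K16Ac loci overlapped H3K9Ac, and 9 H4K16Ac and 15 H3K9Ac loci were listed as increased. With scores at or above the table median there were 96 H4K16Ac and 84 H3K9Ac loci, the overlap was 45.8% for H4K16Ac and 51.2% for H3K9Ac, and 7 H4K16Ac and 13 H3K9Ac loci were listed as increased. Windows of 200 bp gave an overlap of 46.8% for H4K16Ac and 48.0% for H3K9Ac. A minimum overlap of 200 bp gave 48.0% for H4K16Ac and 51.5% for H3K9Ac, with 6 H4K16Ac loci listed as increased. The CREB/CRTC difference changed sign, to 0.585 points, when sites had to overlap the locus. Leaving out 1 run of rows at a time gave an H4K16Ac overlap of 46.9 to 60.6%, with the lowest value without run 3. An alternative chosen after seeing the data left out loci that overlap a window of the same mark near a start site. Of the remaining loci, 9 of 142 for H4K16Ac and 15 of 123 for H3K9Ac were listed as increased.

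No paired analysis was possible because the tables hold no values per library. Depth was not examined here, and a locus without a peak cannot be called free of the mark.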

Other observations

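The exonic loci were spread over the arms. Their share of the exonic, intronic, upstream and near-start loci of an arm, each class merged on its own, was 2.25 to 2.98% for H4K16Ac, lowest on 3L and highest on 3R, and 2.57 to 3.65% for H3K9Ac, lowest on 3R and highest on 2R.

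A start site was inferred from the listed distances for 5802 of 6452 transcripts. An inferred start of a different gene lay within 500 bp of 2 H4K16Ac exonic loci, at CG7791 near CG34200 and at CG1827 near Map60. It lay within 500 bp of 5 H3K9Ac exonic loci, at Nuf2, CG13741, Ef1alpha48D, CG42553 and CG14891. Start sites of genes without a peak of their own are missed by this count, as are further starts of the same gene.

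Windows of the same mark with another annotation overlapped 80 H4K16Ac exonic loci (46.8%) and 105 H3K9Ac exonic loci (61.4%). Windows near a start site did so for 29 H4K16Ac and 48 H3K9Ac loci. In coding exons this was 17 of 89 H4K16Ac and 23 of 62 H3K9Ac loci.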
